A study of Mus musculus with 16 samples.

Results

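Astrocyte nuclei of the mouse hippocampus were picked out of droplet-based single-nucleus RNA-seq libraries of 16 male mice, 1 animal per library. A barcode was taken as an astrocyte nucleus when it held 200 to 4000 genes and at most 5% mitochondrial UMIs, when at least 4 of 8 astrocyte genes (*Acsbg1*, *Gpc5*, *Slc1a3*, *Gldc*, *Atp13a4*, *Ntsr2*, *Bmpr1b* and *Aqp4*) had a UMI, and when none of *Pdgfra*, *Mog*, *Csf1r* and *Gad2* had one. These 12 genes therefore chose the nuclei and are given no test. The rule found 12979 nuclei among 118205 that passed the quality limits and 155084 barcodes in all, with 569 to 1009 nuclei per library. The 2338 nuclei just inside the limit had 4 of the 8 genes, and the 1771 nuclei just outside it had 3. Of the 12979 nuclei, 98.4% had a UMI of *Gpc5*, 98.3% of *Slc1a3*, 84.3% of *Bmpr1b*, 67.8% of *Gldc*, 62.8% of *Acsbg1*, 56.5% of *Atp13a4*, 55.1% of *Ntsr2* and 47.0% of the water channel *Aqp4*, values that the rule itself set. A further 1112 nuclei met the marker limit but held a UMI of an excluded gene, most often *Mog* (538 nuclei).

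The animals formed 4 groups of 4. C57BL/6 wild-type (WT) males (C57BL/6J in the methods of the study), aged 2 months and 23 days, and *Ifnar1*-/- males, aged 3 months and 3 days and lacking a chain of the type I interferon receptor in every cell, were given vehicle or DMXAA by repeated intraperitoneal injection. Tissue was taken a day after the last dose. Genotype coincided with age and cohort, so these cannot be told apart. Hippocampi of the right hemisphere were used, and nuclei, not whole cells, were sequenced.

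DMXAA is a small molecule that binds mouse STING, the adaptor that relays the sensing of cytosolic DNA through TBK1 and IRF3 to the production of type I interferon. Secreted interferon binds the receptor formed by IFNAR1 and IFNAR2 on the same or other cells, where JAK1 and TYK2 phosphorylate STAT proteins. Together with IRF9 these form the factor ISGF3, which binds interferon-response elements in the promoters of interferon-stimulated genes (ISGs). Astrocytes take up glutamate, buffer potassium, feed neurons and contact the vessels, and they can take on reactive states in which genes such as *Gfap*, *C4b* and *Serpina3n* rise. The question put to these nuclei was which genes responded to DMXAA, and how far the response required *Ifnar1*.

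The summed astrocyte counts ran from 1915797 to 3926326 UMIs per library, with a median of 2904 to 3950 UMIs per nucleus. All 12 astrocyte genes that the rule did not use, among them *Slc1a2*, *Gja1* and *Aldh1l1*, were present in every library, with a summed level of 12261 to 18050 CPM (UMI counts scaled to an equal astrocyte total in every library). Microglial genes summed to 53.8 to 135 CPM and excitatory neuron genes to 615 to 1249 CPM in 15 libraries. WT DMXAA replicate 3 stood apart, with 2157 CPM of excitatory neuron genes and 657 CPM of *Apoe*, which lay between 973 and 4333 CPM in the other libraries. The nuclear RNA *Malat1* stood there at 43982 CPM, against 72874 to 134393 CPM in the other 7 WT libraries and 22362 to 46368 CPM in the *Ifnar1*-/- libraries. *Taco1*, a gene of mitochondrial translation, had 52.3 CPM there, 10.3 to 18.6 CPM in the other WT libraries and 49.9 to 168 CPM in the *Ifnar1*-/- libraries. Of the 4382 genes called between the vehicle groups of the 2 genotypes, 73.4% lay nearer to the *Ifnar1*-/- than to the WT vehicle mean in this library, against 8.92% to 13.1% in the other WT DMXAA libraries and 67.4% to 85.9% in the *Ifnar1*-/- DMXAA libraries. On these genes the library labelled WT DMXAA replicate 3 thus went against its genotype label or its cohort, which cannot be told apart. Its summed ISG level was 1335 CPM, where *Ifnar1*-/- libraries had at most 792 CPM and the other WT DMXAA libraries at least 1989 CPM. Of the 35 genes called higher after DMXAA in WT with this library included, 32 had it above every WT vehicle library. *Ddx60* (61.5 CPM) lay above all vehicle libraries, and *Ifitm3* (2.67 CPM) was an exception that lay within the WT vehicle range. The summed ISG levels, the sub-clusters, the gene lists and several genes whose WT call changed are therefore also given without it. Among all barcodes 3033 sequences occurred in more than 1 library, and among astrocyte nuclei 19 did. The targeted gene itself gave no check of the labels. *Ifnar1* (chromosome 16, 91485238 to 91507441, GRCm38) stood at 15.5, 17, 17.1 and 17.8 CPM in WT vehicle and at 8.15, 11.4, 13.8 and 20.2 CPM in *Ifnar1*-/- vehicle libraries (log2 fold change −0.19 ± 0.23 SE, edgeR adjusted p = 0.549), and 3′ reads outside a deleted part are still counted.

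In WT astrocytes DMXAA raised a set of genes that was mostly interferon-stimulated. Of 13640 genes tested on the library sums, 35 were called higher (0.257%) and 3 lower (0.022%), 0.279% in all. A gene was called where the edgeR quasi-likelihood test over all 16 libraries gave a Benjamini-Hochberg adjusted p below 0.05 with a log2 fold change beyond 0.1 in size. A list of 109 ISGs, of which 106 are in the files and 60 had enough counts to test, held 27 of the 35, with none lower. The median log2 fold change of the 60 was 1.61, beside 0.02 over all genes tested, and 59 of the 60 were above 0. The DMXAA libraries lay entirely above or below the vehicle libraries for 30 of the 60, where 3.33% of all tested genes had groups apart (0.74% with DMXAA higher and 2.59% lower). The remaining 46 list members had too few counts for a test. Together they had 285 UMIs in the WT vehicle group and 993 in the WT DMXAA group, and 166 and 165 UMIs in the *Ifnar1*-/- groups.

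Summed over the whole list, ISGs made up 945, 962, 912 and 834 CPM in WT vehicle replicates 1 to 4. After DMXAA they made up 4033, 2183, 1335 and 1989 CPM. Every treated WT library thus lay above every WT vehicle library, with replicate 1 highest and replicate 3 lowest. The rise was 2.41-fold (1.27 on the log2 scale, exact permutation test over 70 arrangements, two-sided p = 0.0286, the smallest that 4 against 4 libraries allow). Without replicate 3 it was 1.51 on the log2 scale (exact permutation p = 0.0286). In *Ifnar1*-/- astrocytes the sums were 726, 717, 728 and 755 CPM with vehicle and 792, 693, 740 and 740 CPM with DMXAA. These groups overlapped, and the change was 0.018 on the log2 scale (exact permutation p = 0.714). The WT effect exceeded the *Ifnar1*-/- effect by 1.25 on the log2 scale (exact permutation p = 0.0286), and by 1.49 without WT DMXAA replicate 3 (exact permutation p = 0.0286). For this test each DMXAA library was taken less the vehicle mean of its genotype, and genotypes were exchanged among the DMXAA libraries. The vehicle means were taken as fixed, so the spread of the vehicle libraries does not enter the p. Microglial genes in the same nuclei summed to 89.4 to 135 CPM in WT vehicle and 62.6 to 132 CPM in WT DMXAA libraries, and the part of microglial RNA in the ISG sum was not tested.

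**Figure D1:**
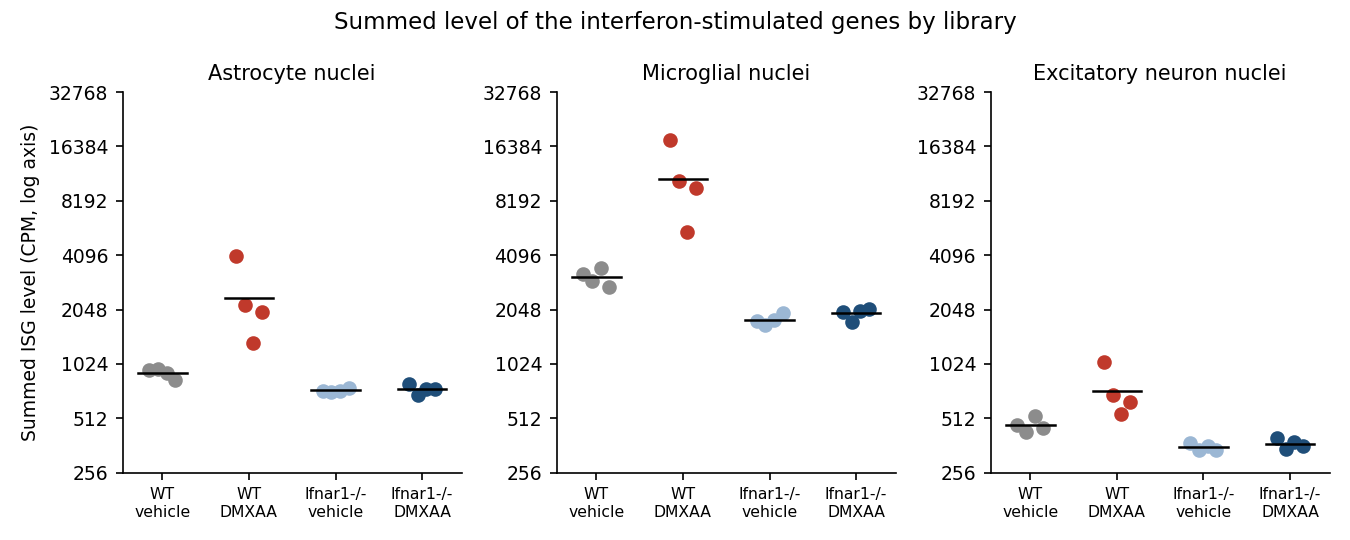
Summed ISG level (CPM, log2-spaced axis) in astrocyte, microglial and excitatory neuron nuclei. Each point is 1 library and each bar the mean of 4; only the WT DMXAA libraries stand above their vehicle libraries, in astrocytes at 1335 to 4033 CPM against 834 to 962 CPM.

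The signalling core of the pathway was among the most significant genes. *Stat2*, a subunit of the factor ISGF3, had 37.0, 42.2, 33.2 and 32.9 CPM in WT vehicle and 241, 112, 73.3 and 90.6 CPM in WT DMXAA libraries (log2 fold change 1.91 ± 0.27 SE, adjusted p = 0.00234). All treated libraries lay above all vehicle libraries, and the *Ifnar1*-/- libraries gave 26.2 to 34.3 CPM with vehicle and 20.8 to 34.2 CPM with DMXAA. *Irf9*, the DNA-binding subunit of ISGF3, went from 11.7 to 15.7 CPM to 30.6 to 96.6 CPM (2.19 ± 0.24, adjusted p = 0.000253). Of the 6 signalling members tested, 3 were called. *Irf1* was not called (3.28 to 7.45 CPM with vehicle, 2.97 to 5.87 CPM with DMXAA, 0.07 ± 0.37). *Irf7*, which amplifies interferon production, was too low for a test, with 0 to 1.66 CPM in WT vehicle and 1.53 to 16.7 CPM in WT DMXAA libraries. With WT DMXAA replicate 3 left out, where the low-count filter follows the smaller group, *Irf7* was tested and called (3.81 ± 0.62, adjusted p = 0.00158).

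In the list's group of nucleic acid sensors, 4 of 6 tested members were called higher. *Ddx60* (chromosome 8, 61928087 to 62038244), a helicase linked to RIG-I signalling, was the most significant gene of the comparison. It had 5.16, 6.21, 4.85 and 4.25 CPM in WT vehicle libraries and 234, 79.7, 61.5 and 67.4 CPM in WT DMXAA libraries. It stayed in *Ifnar1*-/- nuclei at 0.764 to 4.05 CPM with vehicle and 2.28 to 4.48 CPM with DMXAA. The WT log2 fold change was 4.51 ± 0.43 (adjusted p = 8.22e-05). *Ddx58*, which encodes RIG-I, rose by 1.62 ± 0.26, *Ifih1*, which encodes MDA5, by 1.65 ± 0.24, and *Eif2ak2*, the double-stranded-RNA-activated kinase PKR, by 1.12 ± 0.17 on the log2 scale. The sensor *Tlr3* (0.21 ± 0.25) and the zinc-finger gene *Zcchc2* (−0.02 ± 0.16), which the list places in this group, were not called.

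Several antiviral effectors rose steeply from vehicle levels of a few UMIs. Of the IFIT and tetherin group 3 of 7 tested members were called, of the oligoadenylate synthetases 1 of 2 and of ISG15 conjugation 2 of 2, whereas none of 11 PYHIN and Schlafen genes had enough counts for a test. *Ifit1* (chromosome 19, 34640871 to 34650009), whose product binds RNA that lacks the host cap, had 1.88, 3.31, 0 and 0.85 CPM in WT vehicle libraries and 74.6, 34.2, 14.5 and 16.9 CPM in WT DMXAA libraries (log2 fold change 4.64 ± 0.60, adjusted p = 0.00115). Without *Ifnar1* it lay between 0 and 0.602 CPM whatever the treatment. *Oasl2*, of the oligoadenylate synthetase family, had 6.1, 3.31, 1.86 and 2.83 CPM in WT vehicle libraries and 203, 65.0, 18.3 and 29.4 CPM after DMXAA (4.57 ± 0.69, adjusted p = 0.00765). No *Oasl2* UMI was found in the *Ifnar1*-/- vehicle libraries, and 0.263 to 0.628 CPM with DMXAA. *Usp18*, a protease that removes ISG15 and damps receptor signalling, had 4.22, 1.66, 1.86 and 1.42 CPM in WT vehicle and 96.6, 22.5, 11.46 and 18.5 CPM in WT DMXAA libraries (4.12 ± 0.67, adjusted p = 0.0138). *Bst2*, or tetherin, which holds virions at the cell surface, went from 0.566 to 2.48 CPM to 4.97 to 24.5 CPM (3.58 ± 0.51). *Ifit3b* rose by 3.55 ± 0.69, but its groups overlapped, its call held in 5 of the 16 fits that each left out 1 library and was lost with limma and with 3 markers in the rule, and its reads may be shared with its close copy *Ifit3*. *Ifit3* had too few counts for a test with all libraries (0.745 to 2.81 CPM with vehicle, 1.53 to 47.5 CPM with DMXAA) and was called without WT DMXAA replicate 3 (4.14 ± 0.49, adjusted p = 4.14e-05). *Herc6*, the mouse ligase that attaches ISG15, went from 45.1 to 56.7 CPM to 64.2 to 175 CPM (1.13 ± 0.20).

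Further called ISGs take part in ubiquitin signalling and GTPase defence. Of 8 tested genes of the PARP, *Dtx3l* and *Rnf213* group, 3 were called higher, namely *Rnf213* (1.60 ± 0.23), *Dtx3l* (1.99 ± 0.36) and *Parp9* (1.58 ± 0.30). With 5 markers in the rule *Dtx3l* and *Parp9* were not called, and *Dtx3l* was called in 11 of the 16 fits that each left out 1 library. *Dtx3l* and *Parp9* overlap on opposite strands, so their reads may not be wholly separate. All 8 had positive changes, and 6 of the 8 had groups apart (3.33% of all tested genes, 0.74% with DMXAA higher). The guanylate-binding proteins *Gbp3* (3.52 ± 0.58) and *Gbp6* (3.36 ± 0.54) were called among 6 tested guanylate-binding proteins and immunity-related GTPases, and reads of the guanylate-binding proteins may be shared between close copies. Among 7 tested nuclear-body and TRIM genes, *Trim30a* (3.16 ± 0.52), *Trim34a* (2.26 ± 0.45, groups overlapping, called in 2 of the 16 fits that each left out 1 library and not with limma, 3 markers or 4 more excluded genes) and *Trim25* (1.76 ± 0.25), a ubiquitin ligase that acts on RIG-I, were called.

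MHC class I presentation gave 2 calls of 11 tested members. *Nlrc5*, the transactivator of MHC class I genes, stood at 8.91, 2.48, 1.49 and 1.98 CPM in WT vehicle and 51.2, 21.0, 13.8 and 13.2 CPM in WT DMXAA libraries (2.88 ± 0.51, adjusted p = 0.0164, called in 12 of the 16 fits). *B2m*, the light chain of class I molecules, went from 6.62 to 10.1 CPM to 12.6 to 37.6 CPM (1.58 ± 0.25, adjusted p = 0.00686). The heavy chains *H2-D1* and *H2-K1* were not called with all libraries (1.84 ± 0.43, adjusted p = 0.119, and 0.94 ± 0.31, adjusted p = 0.511). Both were low in WT DMXAA replicate 3 alone, where *H2-D1* had 3.44 CPM against 28.2, 34.2 and 30.1 CPM in the other treated WT libraries. Without that library their log2 fold changes were 2.20 ± 0.22 and 1.24 ± 0.17 (adjusted p = 6.62e-06 and 0.000303).

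Among small interferon-induced proteins, 4 of 5 tested members were called. *Ifi27* (chromosome 12, 103434211 to 103440239) had 18.3, 24.8, 23.5 and 17.6 CPM in WT vehicle libraries and 182, 167, 27.1 and 179 CPM in WT DMXAA libraries. Replicate 3 thus stood just above the vehicle libraries and far below the other treated ones. The log2 fold change was 2.79 ± 0.38 with all libraries (adjusted p = 0.00212) and 3.13 ± 0.14 without replicate 3 (adjusted p = 2.36e-11). *Xaf1*, an antagonist of an inhibitor of apoptosis, rose by 3.19 ± 0.37, *Lgals3bp*, a secreted galectin ligand, by 2.88 ± 0.40, and *Ifitm3*, which blocks viral entry, by 2.50 ± 0.45 on the log2 scale. The call of *Ifitm3* was lost with limma and held in 10 of the 16 fits that each left out 1 library. It had 2.67 CPM in replicate 3, below the highest vehicle library, and 17.2 to 25.6 CPM in the other treated WT libraries, and its log2 fold change was 2.85 ± 0.26 without replicate 3 (adjusted p = 2.84e-06).

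Across the 27 called ISGs, WT DMXAA replicate 1 was the highest treated library in 27 and replicate 3 the lowest in 23. Without replicate 3, 129 of 13903 genes were called (0.928%), 98 higher (0.705%) and 31 lower (0.223%), and 46 of the higher genes were among the 68 ISGs then tested. Of the 35 genes called higher with all libraries, 34 were also called then.

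**Figure D2:**
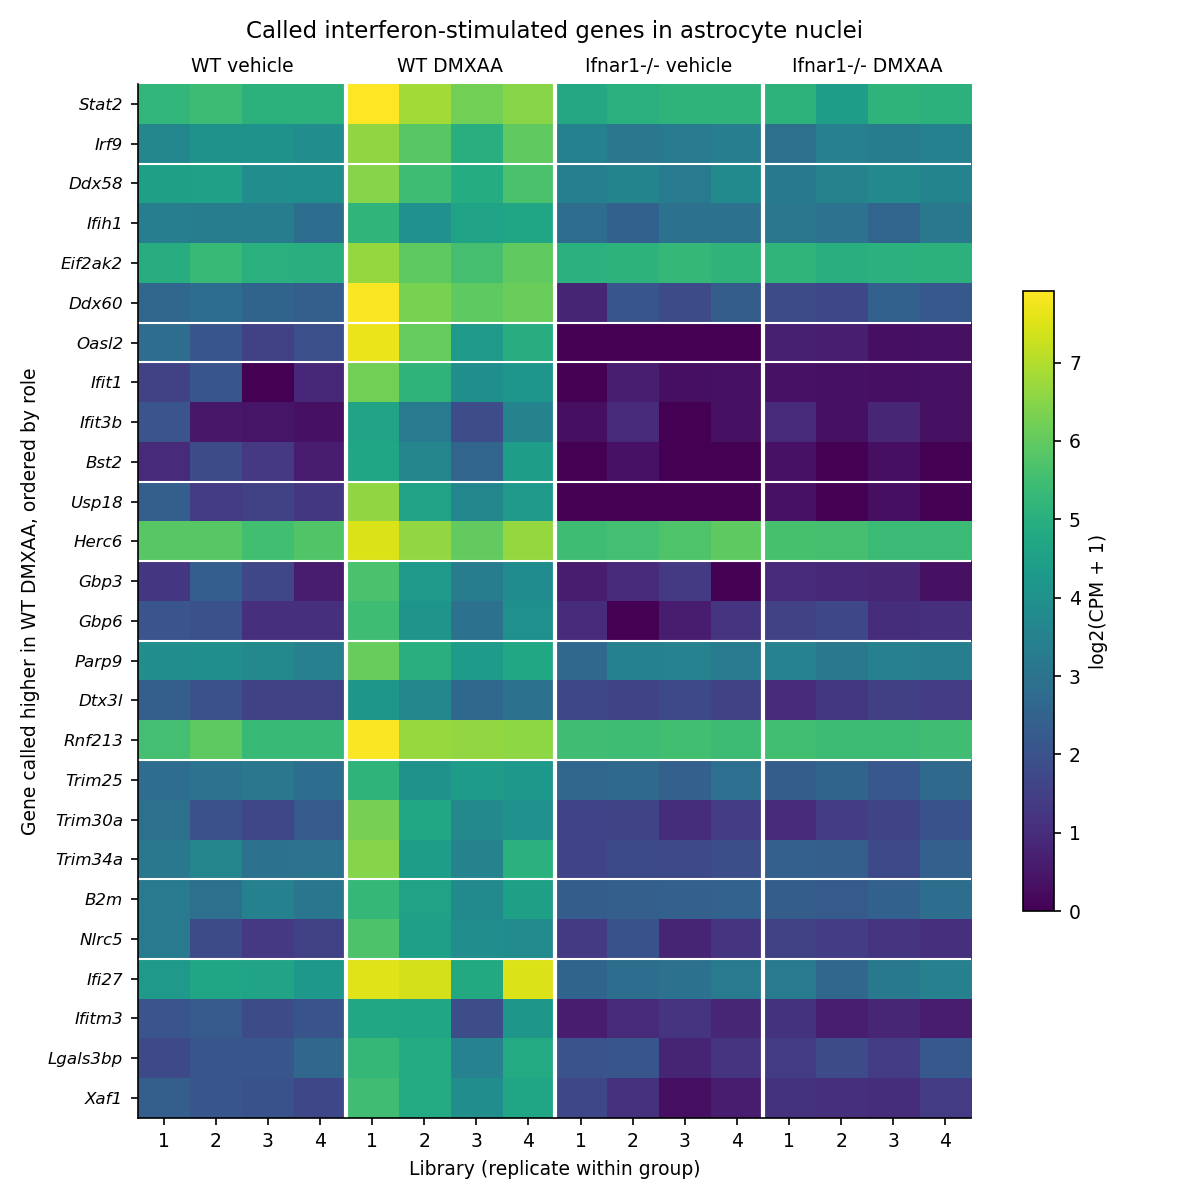
Level of 26 of the 27 called ISGs (rows, grouped by role between white lines) in the 16 libraries (columns), as log2 of CPM plus 1. The WT DMXAA columns are brightest, replicate 1 above all, and the *Ifnar1*-/- DMXAA columns resemble the *Ifnar1*-/- vehicle columns; *Oasl2* and *Usp18* are at 0 in every *Ifnar1*-/- vehicle library.

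The promoters of the responding genes were read for the letters that ISGF3 is known to bind. The windows ran from 250 bases before to 50 bases after each RefSeq gene start (GRCm38.p6). An interferon response core, GAAANNGAAA on either strand, was found in 3.99% of 27025 genes with a window and in 3.62% of 10299 tested genes. It was present in 14 of the 26 called-higher genes with a window (53.8%), in 13 of 21 called ISGs (61.9%) and in 9 of 27 tested but uncalled ISGs (33.3%). A STAT core, TTCNNNGAA, was found in 8.12% of tested genes and in 4 of the 26 (15.4%). In 2 of these 26 genes matches to both cores overlapped. The shares are descriptions, and a match is not a binding site. The 150 bases before the start are shown for 4 called genes with a pair of matches, 5′ to 3′ on the gene's strand, with the interferon response core in capitals, for *Ifit1* (chr19:34640739-34640888, plus strand), *Ddx60* (chr8:61927937-61928086, plus), *Bst2* (chr8:71537473-71537622, minus) and *Gbp3* (chr3:142559894-142560043, plus).
Ifit1: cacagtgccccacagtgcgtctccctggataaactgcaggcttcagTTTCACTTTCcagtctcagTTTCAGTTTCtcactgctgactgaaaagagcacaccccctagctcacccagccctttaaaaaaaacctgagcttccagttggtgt
Ddx60: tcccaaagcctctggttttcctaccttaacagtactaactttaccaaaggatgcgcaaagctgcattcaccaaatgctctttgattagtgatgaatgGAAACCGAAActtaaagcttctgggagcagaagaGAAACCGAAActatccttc
Bst2: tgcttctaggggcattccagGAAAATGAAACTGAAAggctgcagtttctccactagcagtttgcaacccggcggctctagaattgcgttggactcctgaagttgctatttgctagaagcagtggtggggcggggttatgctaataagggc
Gbp3: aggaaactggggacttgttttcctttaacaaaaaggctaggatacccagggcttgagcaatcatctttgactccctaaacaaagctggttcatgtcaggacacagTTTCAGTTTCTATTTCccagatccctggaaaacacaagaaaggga
In *Ifit1* the matches begin 104 and 85 bases before the start, in *Ddx60* 53 and 19 bases before it. In *Bst2* and *Gbp3* the pair overlaps, beginning 130 and 124 bases and 45 and 39 bases before the start. RefSeq gives *Gbp3* 2 start windows, and the other one holds no match. The interferon-inducible genes *Oasl2* and *Xaf1*, which also rose, held no match in their windows.

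In *Ifnar1*-/- astrocytes no gene was called after DMXAA (0% of 13640 tested, smallest adjusted p = 0.851 by edgeR). Of the 13640, 770 had an unadjusted p under 0.05, where chance alone gives a share of about 0.05. The 60 tested ISGs had a median log2 fold change of 0.06, beside −0.01 over all genes, and 33 of them were above 0. Of the 35 WT responders, 17 had positive and 17 negative changes there, and 3 (*Oasl2*, *Usp18* and *Gm4951*) had no UMI with vehicle. Leaving out WT DMXAA replicate 3 from the joint fit gave 31 called genes of 13903 tested in *Ifnar1*-/- nuclei, 26 higher and 5 lower. In WT the same fit called 129 (0.928%). The *Ifnar1*-/- groups were apart for 4 of the 60 tested ISGs, beside 6.88% of all tested genes (4.11% with DMXAA higher and 2.76% lower).

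The difference between the WT and *Ifnar1*-/- effects, tested gene by gene, was called for no gene (0% of 13640, edgeR, smallest adjusted p = 0.0854). An unadjusted p under 0.05 was reached by 942 of the 13640 genes, by 35 of the 60 ISGs and by 29 of the 35 genes called higher in WT. These 35 genes were chosen by their WT effect, which is part of the difference. Their share is thus raised by the choice and gives no separate evidence on the genotypes. The smallest adjusted p was shared by several genes, *Ddx60*, *Irf9*, *Trim25* and *Dbp* among them. For *Ddx60* the WT effect exceeded the *Ifnar1*-/- effect by 4.25 ± 0.77 and for *Irf9* by 2.23 ± 0.36 on the log2 scale. Without WT DMXAA replicate 3 the difference was called for 18 genes, 17 of them with the larger effect in WT and 13 of them ISGs, and DESeq2 called 27 genes on all libraries. The difference between the genotype groups thus passed or missed the threshold for single genes with the tool and the library. Age and cohort go with genotype in this difference and cannot be told apart from it. The difference in the summed ISG level lay between 0.960 and 1.49 on the log2 scale when each of the 16 libraries was left out in turn. Its exact permutation p, with the vehicle means taken as fixed, was 0.0571 without any 1 of the *Ifnar1*-/- DMXAA libraries and 0.0286 otherwise.

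Levels under vehicle also differed by genotype. *Ifnar1*-/- vehicle astrocytes differed from WT vehicle astrocytes by −0.318 on the log2 scale in their summed ISG level (exact permutation p = 0.0286), and the libraries did not overlap. Microglial genes in these nuclei were also apart, at 89.4 to 135 CPM in WT and 53.8 to 71.4 CPM in *Ifnar1*-/- vehicle libraries. So were genes of white-matter and fibrous astrocytes, at 493.7 to 613.5 and 349.2 to 414.6 CPM. Oligodendrocyte precursor genes and the astrocyte genes outside the rule were apart in the opposite direction. The part of these shifts in the ISG difference was not tested. Of the 60 tested ISGs, 10 were called lower and 3 higher, where 17.7% and 14.4% of all 13640 genes were called lower and higher (32.1% in all). The share of ISGs called lower was thus no larger than that of all genes. The median was −0.55, beside −0.03 over all genes. The 10 were *Oasl2*, *Usp18*, *Bst2*, *H2-D1*, *Trim34a*, *Psmb10*, *Ifi27*, *B2m*, *Trafd1* and *Tlr3*. The calls of *Oasl2* and *Usp18* held in 9 and that of *Bst2* in 12 of the 16 fits that each left out 1 library. Those of *Oasl2* and *Usp18* were lost with 5 markers in the rule and with 4 more excluded genes, and that of *Oasl2* also without the sub-clusters that held markers of another class. *Ifi27* had 17.6 to 24.8 CPM in WT vehicle and 4.84 to 8.63 CPM in *Ifnar1*-/- vehicle libraries (−1.50 ± 0.44, adjusted p = 0.0184). *B2m* had 6.62 to 10.1 CPM and 4.08 to 4.59 CPM (−0.78 ± 0.28, adjusted p = 0.0456). *Oasl2*, with no UMI in the knockout group, was at least 16.5-fold higher in WT vehicle, taking 3 UMIs over the group as the floor, and *Usp18* at least 10.6-fold. The 3 higher members were *Parp11*, *Adar* and *Zcchc2* (0.52 to 0.64). In all, 4382 genes were called between these groups, and genotype, age and cohort cannot be told apart in them. Those with the largest rise in *Ifnar1*-/- were *Flt1*, *Taco1*, *Mecom*, *Gm13481* and *Cgnl1* (2.44 to 4.20 on the log2 scale). With 3 markers in the rule *Mecom* (1.22), *Gm13481* (1.58) and *Cgnl1* (1.453) were not called, nor was *Gm13481* with 5 markers (1.56). *Flt1* and *Mecom* are among the 6 endothelial markers. These summed to 1.98 to 11.6 CPM in WT vehicle and 8.15 to 52.1 CPM in *Ifnar1*-/- vehicle libraries, a sum that holds the rise of *Flt1* and *Mecom* themselves. The part of endothelial RNA in the result was not tested. Beside *Oasl2*, *Usp18* and *Bst2*, the largest falls were of *Pold4* (−3.14 ± 0.69), a subunit of a DNA polymerase, and of *B230217J21Rik* (−2.84 ± 0.56).

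More WT nuclei held ISG UMIs after DMXAA. Each nucleus was thinned to 1000 UMIs, which left out 32 shallower nuclei (8 WT and 24 *Ifnar1*-/-). The share of nuclei with at least 1 ISG UMI then rose from 57.8% ± 1.68 (SD, n = 4) with vehicle to 83.4% ± 10.6 with DMXAA in WT (exact permutation p = 0.0286), with 96.3%, 84.1%, 70.2% and 83.1% in the treated libraries. The share with at least 3 ISG UMIs rose from 7.34% ± 1.16 to 39.1% ± 22.99, with 71.3%, 35.4%, 16.8% and 33.0% in treated replicates 1 to 4 (exact permutation p = 0.0286). The first share was, in the *Ifnar1*-/- groups, 51.3% ± 0.717 and 51.7% ± 2.17 (exact permutation p = 0.83). Before thinning, 91.2% of WT vehicle and 98.2% of WT DMXAA nuclei had an ISG UMI. Free RNA adds to such shares in all nuclei, and its part was not tested.

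Sub-clusters of the astrocyte nuclei showed the same direction. Clustering without the ISGs, the reactive genes and the genes of the rule gave 18 clusters, of which 4 had at least 20 nuclei in each of the 16 libraries. Cluster 1 (6532 nuclei) was led by genes such as *Slc7a10*, *Luzp2* and *Trpm3*, cluster 2 (2030 nuclei) by *Lama3*, *Id3*, *Tnc* and *Aldh1a1*, cluster 3 (1404 nuclei) by *Thbs4* and *Siah3*, and cluster 4 (835 nuclei) by *Myoc*, *Ccdc3* and *Sulf2*. The clusters are described by these genes and given no type names. Within them the summed ISG level rose by 1.44, 1.26, 1.36 and 0.89 on the log2 scale in WT (exact permutation p = 0.0286 in each, 4 clusters compared, adjusted p = 0.0286). The rises were 1.68, 1.41, 1.64 and 1.08 without WT DMXAA replicate 3 (exact permutation p = 0.0286 in each). With *Ifnar1* absent it changed by 0.04, −0.01, 0.09 and 0.06 (exact permutation p = 0.4, 0.83, 0.0857 and 0.657). Cluster 4 had the highest WT vehicle level, 1436 CPM, against 850.3 to 943 CPM in the other three, and the difference between clusters was not tested. In the share of the astrocyte nuclei that each of the 18 clusters held, the lowest exact permutation p between treatments was 0.0571 over 36 comparisons (adjusted p = 0.748), in cluster 17 of the *Ifnar1*-/- groups. Each gene was centred within its library before clustering, which evens out differences between libraries. A shift of these shares between treatments could thus be hidden.

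**Figure D3:**
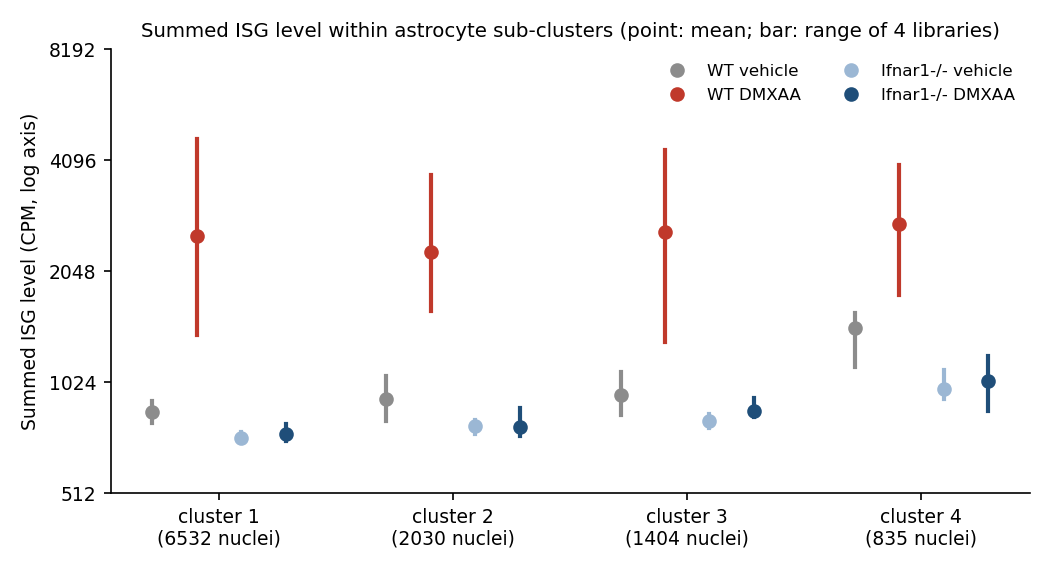
Summed ISG level (CPM, log2-spaced axis) within the 4 sub-clusters present in all libraries. Points are means and bars the range of 4 libraries; in each cluster the WT DMXAA range lies above the WT vehicle range, and the *Ifnar1*-/- ranges overlap.

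Some of the nuclei carried genes of other classes. Of the 18 clusters, 8, with 889 nuclei (6.85%, 4.27% to 10.8% of a library), held markers of another class at over 1000 CPM and over 3 times the level in other nuclei. These were neuronal in clusters 5, 8 and 12, and oligodendrocyte, fibroblast, choroid plexus, microglial and ependymal in the others. WT DMXAA replicate 3 had the largest share. Without these nuclei 33 genes were called higher and 3 lower in WT, 26 ISGs among them, none in *Ifnar1*-/- and none for the difference.

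Outside the ISG list, 8 genes were called higher in WT. *Gm4951*, a predicted interferon-inducible GTPase that was not on the list, had 0.938, 1.66, 0.745 and 0.850 CPM in WT vehicle libraries and 73.6, 44.5, 16.8 and 17.2 CPM after DMXAA (log2 fold change 5.21 ± 0.62, adjusted p = 0.00314). No UMI of it was found in the 8 *Ifnar1*-/- libraries, so that WT DMXAA nuclei had at least 161-fold more than *Ifnar1*-/- DMXAA nuclei, taking 3 UMIs over the group as the floor. *Zc3hav1*, which encodes the antiviral zinc-finger protein ZAP, went from 4.53 to 8.28 CPM to 10.3 to 19.3 CPM (1.24 ± 0.23). *C4b* (chromosome 17, 34728380 to 34743882), a complement component, had 56.3, 65.8, 66.7 and 38.0 CPM in WT vehicle and 204, 181, 111 and 131 CPM in WT DMXAA libraries. Its WT change was 1.57 ± 0.19 (adjusted p = 0.000544), and *Ifnar1*-/- libraries had 29.8 to 45.6 CPM with vehicle and 40.5 to 54.3 CPM with DMXAA (0.24 ± 0.19, adjusted p = 0.878). *Slc22a4*, a transporter of zwitterions such as ergothioneine, rose by 0.68 ± 0.13.

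Among the others, 3 rose in WT toward or to levels that *Ifnar1*-/- nuclei already had with vehicle. *Rbms3*, an RNA-binding protein, had 94.3 to 113 CPM in WT vehicle, 145 to 212 CPM in WT DMXAA and 173 to 227 CPM in *Ifnar1*-/- vehicle libraries (WT change 0.80 ± 0.15). *Afap1l2*, an adaptor of tyrosine kinase signalling, had 11.9 to 16.4, 19.8 to 26.0 and 24.7 to 36.1 CPM in the same order (0.83 ± 0.17). *Spats2l* had 26.6 to 30.6, 35.7 to 57.9 and 38.9 to 44.6 CPM (0.82 ± 0.17). All 3 were called higher in *Ifnar1*-/- than in WT vehicle nuclei (0.69 to 1.21). Without WT DMXAA replicate 3 the WT changes were 0.61 ± 0.11 for *Rbms3*, 0.65 ± 0.15 for *Spats2l* and 0.73 ± 0.18 for *Afap1l2*, which was then not called (adjusted p = 0.0532).

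With all libraries the 3 called falls in WT were of clock outputs and a cytochrome P450. Without WT DMXAA replicate 3, 31 genes were called lower (0.223%). They held these 3 and neuronal genes such as *Gria3* (−0.60 ± 0.12), *Grm7* (−0.67 ± 0.16) and *Rims1* (−0.77 ± 0.18). Excitatory neuron genes summed to 615 to 823 CPM in the other WT DMXAA and 861 to 1036 CPM in the WT vehicle libraries. The part of neuronal RNA in these falls was not tested. *Dbp* (chromosome 7, 45705088 to 45710203), a transcription factor driven directly by the circadian clock, had 59.5, 50.9, 54.4 and 58.3 CPM in WT vehicle and 15.1, 19.1, 13.8 and 39.7 CPM in WT DMXAA libraries (−1.22 ± 0.24, adjusted p = 0.0312), a call that was lost with 3 markers in the rule. In *Ifnar1*-/- nuclei it had 23.9, 27.7, 34.5 and 27.5 CPM with vehicle and 48.7, 37.4, 36.9 and 52.4 CPM with DMXAA, so the treated libraries lay above the vehicle libraries (0.60 ± 0.23, adjusted p = 0.851). *Ciart*, a repressor of the clock, had 11.7 to 16.4 CPM and 5.38 to 8.26 CPM in WT (−0.96 ± 0.20, adjusted p = 0.0494). Its call was lost with RLE factors, with no filter on low counts and with 3 or 5 markers in the rule, and it held in 2 of the 16 fits that each left out 1 library. *Cyp2j8* had 19.4 to 24.4 CPM and 6.28 to 10.4 CPM (−1.22 ± 0.23, adjusted p = 0.0246, called in 10 of those 16 fits and not with 5 markers), and its *Ifnar1*-/- value was −0.72 ± 0.21 (adjusted p = 0.851). Of 10 evening-phase clock genes tested, 2 were called, 9 were negative and 4 had groups apart in WT, with a median of −0.33, where 0.022% of all tested genes were called lower and 3.33% had groups apart (2.59% with DMXAA lower). The 2 calls held without WT DMXAA replicate 3, and the median was then −0.35. The median in *Ifnar1*-/- was 0.02. None of 4 tested morning-phase genes was called, *Arntl* among them (0.17 ± 0.10). The hour of day at which tissue was taken is not given in the sources used here, and its part in these values was not tested.

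Among reactive-astrocyte genes, *C4b* was the 1 called of 15 tested, and the median was 0.40. *Gfap*, the intermediate filament that marks reactive astrocytes, had 99.1 to 144 CPM in WT vehicle and 89.4 to 194 CPM in WT DMXAA libraries (0.25 ± 0.20, adjusted p = 0.946). *Vim* had 7.97 to 14.5 CPM and 1.91 to 19.6 CPM (0.36 ± 0.39). *Serpina3n* (at most 6.85 CPM), *Lcn2* (at most 1.57 CPM) and the chemokine *Cxcl10* (at most 3.28 CPM) were too low for a test. The A1-type set, which shares *H2-D1*, *H2-T23*, *Psmb8*, *Gbp2* and *Iigp1* with the ISG list, had a median of 1.36 over 6 tested genes, with *C4b* called, and the general and A2-type sets had medians of 0.25 and 0.25 over 7 and 2 genes. Without WT DMXAA replicate 3, 5 of 18 tested reactive genes were called, namely *C4b* and the ISGs *Iigp1*, *H2-T23*, *H2-D1* and *Psmb8*, and the median was 0.65.

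Genes of the supporting functions of astrocytes gave no call in WT. Of 53 tested, 24 were above 0 and the median was −0.00. The groups were apart for 1 of the 53 in WT and for 10 in *Ifnar1*-/-, where 3.33% and 6.88% of all tested genes had groups apart. The share in *Ifnar1*-/- was thus above that of all genes, though none of the 53 was called there. *Glul*, glutamine synthetase, had 455 to 753 CPM in WT vehicle and 312 to 837 CPM in WT DMXAA libraries (0.02 ± 0.22). The glutamate transporter *Slc1a2* changed by 0.02 ± 0.10, the gap-junction protein *Gja1* by −0.12 ± 0.20 and *Apoe*, the main lipid carrier of the brain, by −0.04 ± 0.33. Without WT DMXAA replicate 3, none of the 53 was called, 26 were above 0, and *Apoe* changed by 0.28 ± 0.13 (adjusted p = 0.35). In *Ifnar1*-/- libraries *Apoe* had 973 to 1247 CPM with vehicle and 1581 to 1997 CPM with DMXAA, so these groups were apart. None of 20 astrocyte transcription factors was called (median 0.12), *Sox9* (0.00 ± 0.17) and *Nfia* (0.23 ± 0.11) included.

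**Figure D4:**
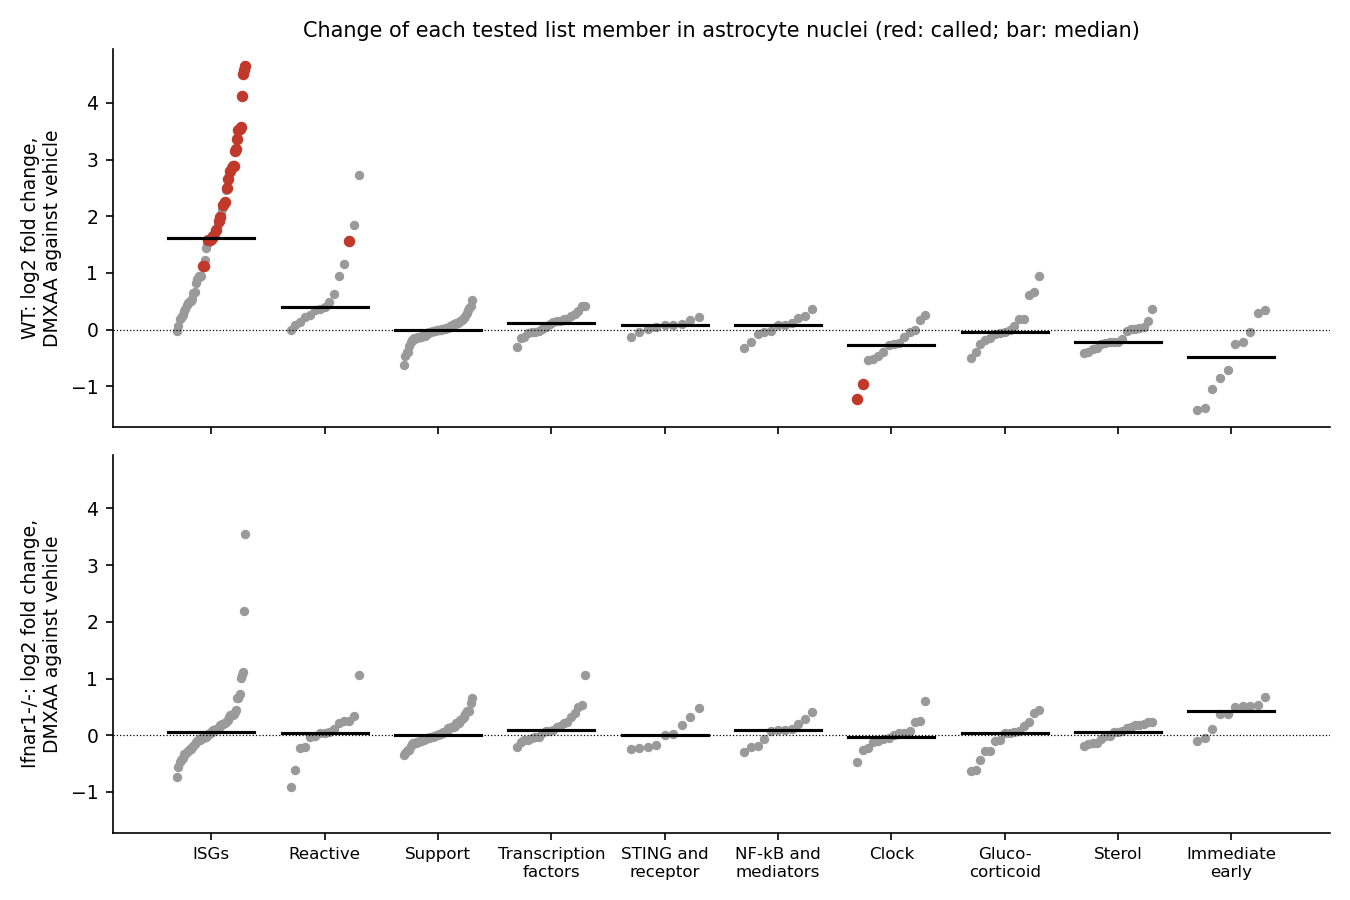
Log2 fold change of each tested list member after DMXAA in WT (top) and *Ifnar1*-/- (bottom) astrocytes, members of a list in ascending order. Red points were called and bars are medians; in WT the ISG median is 1.61 and the others lie between −0.48 and 0.40, and in *Ifnar1*-/- no point is red.

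The pathway that DMXAA acts on was thinly covered in these nuclei. *Cgas*, the DNA sensor (at most 1.47 CPM), and *Tmem173*, the gene of STING (at most 1.47 CPM), had too few UMIs for a test. The kinase *Tbk1* had 51.8 to 57.4 CPM in WT vehicle and 44.4 to 56.7 CPM in WT DMXAA libraries (−0.04 ± 0.11). The receptor chain *Ifnar2* (0.09 ± 0.22) and the kinase *Jak1* (0.06 ± 0.11) were not called, nor was any of the 9 tested members of this list (median 0.09). Of 11 tested NF-kB genes and inflammatory mediators none was called (median 0.08), with *Nfkb1* at 0.20 ± 0.12 and *Nfkbia* at 0.12 ± 0.27. No call was made among 15 glucocorticoid and stress targets (median −0.05), 17 sterol genes (−0.21) and 10 immediate early genes (−0.48, against 0.43 in *Ifnar1*-/-). *Fkbp5*, a glucocorticoid target, had 12.3 to 40.6 CPM in WT vehicle and 15.1 to 69.1 CPM in WT DMXAA libraries (0.95 ± 0.45, adjusted p = 0.839). These 5 lists and the transcription factors held no call without WT DMXAA replicate 3 either. The medians were then 0.02 for the pathway and receptor list, 0.03 for NF-kB genes and mediators and 0.10 for glucocorticoid targets. They were −0.08 for sterol genes, −0.43 for immediate early genes and 0.09 for the transcription factors.

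Microglial and excitatory neuron nuclei, taken from the same libraries by rules of the same kind, showed where the astrocyte response differed. In WT the summed ISG level rose 3.23-fold in microglia (4403 nuclei) and 1.504-fold in excitatory neurons (42375 nuclei), beside 2.41-fold in astrocytes. Gene by gene, with the library as a block, 16 of 13228 genes (0.121%) differed in their WT effect between astrocytes and microglia, 9 with the larger change in astrocytes (0.068%) and 7 with the smaller (0.0529%). An unadjusted p under 0.05 was reached by 858 of the 13228 genes, where chance alone gives a share of about 0.05. In simulated data this test called 12.9% of 2-fold differences, so most differences of that size would be missed. The WT effects on the 93 ISGs in this test differed by a median of −0.26, beside 0.01 over all genes.

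*Ddx60*, *Ifi27* and *Gm4951* had larger fold changes in astrocytes than in microglia. *Ddx60* went from 5.12 to 111 CPM (group means) in WT astrocytes and from 68.0 to 225 CPM in WT microglia, a difference in log2 fold change of 2.56 ± 0.33 (edgeR adjusted p = 0.000918). *Ifi27* went from 21.0 to 139 CPM in astrocytes and from 33.2 to 43.5 CPM in microglia, where it was not called (2.34 ± 0.31, adjusted p = 0.000918). *Gm4951* went from 1.05 to 38.0 CPM and from 40.3 to 208 CPM (2.63 ± 0.42, adjusted p = 0.0164, called in 12 of the 16 fits). All 3 rose in astrocytes from a level below that of microglia, and *Ddx60* and *Gm4951* were still below it after DMXAA. The next by size, *Myo1d* (2.25 ± 0.44) and *D7Ertd443e* (2.22 ± 0.37), had negative changes in microglia, of which that of *Myo1d* was called, and were not called in astrocytes. Their astrocyte changes were 0.83 ± 0.45 and 0.88 ± 0.52 with all libraries and 0.27 ± 0.42 and 0.12 ± 0.45 without WT DMXAA replicate 3, and the difference of *Myo1d* was called in 11 of the 16 fits. *D7Ertd443e* was also among the leading genes of cluster 14, which held oligodendrocyte markers (551 CPM against 5.32 CPM in other nuclei), and the part of these nuclei was not tested.

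*Ifit2* and *H2-K1* had smaller fold changes in astrocytes, as did *Rtp4*, a chaperone of receptors. *Ifit2*, which binds viral RNA, went from 2.82 to 5.15 CPM in WT astrocytes and from 0.799 to 47.5 CPM in WT microglia, where the vehicle group held 2 UMIs and the DMXAA group 128, so that the size of the difference rests on a count below the floor of 3 UMIs (−4.64 ± 0.90, adjusted p = 0.0415), and this difference was called in 7 of the 16 fits that each left out 1 library. *Rtp4* went from 24.7 to 32.0 CPM in astrocytes and from 6.75 to 76.4 CPM in microglia (−3.00 ± 0.43, adjusted p = 0.00251). *H2-K1* went from 26.7 to 49.2 CPM and from 59.8 to 311 CPM (−1.49 ± 0.24, adjusted p = 0.00772). *Sdc3* (−2.37 ± 0.46, called in 6 of the 16 fits), *A330040F15Rik* (−2.34 ± 0.45, called in 10), *A930037H05Rik* (−1.68 ± 0.31, called in 13) and *Tns1* (−1.17 ± 0.22) completed the 7. Without WT DMXAA replicate 3, 114 genes differed from microglia, 83 with the larger change in astrocytes.

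**Figure D5:**
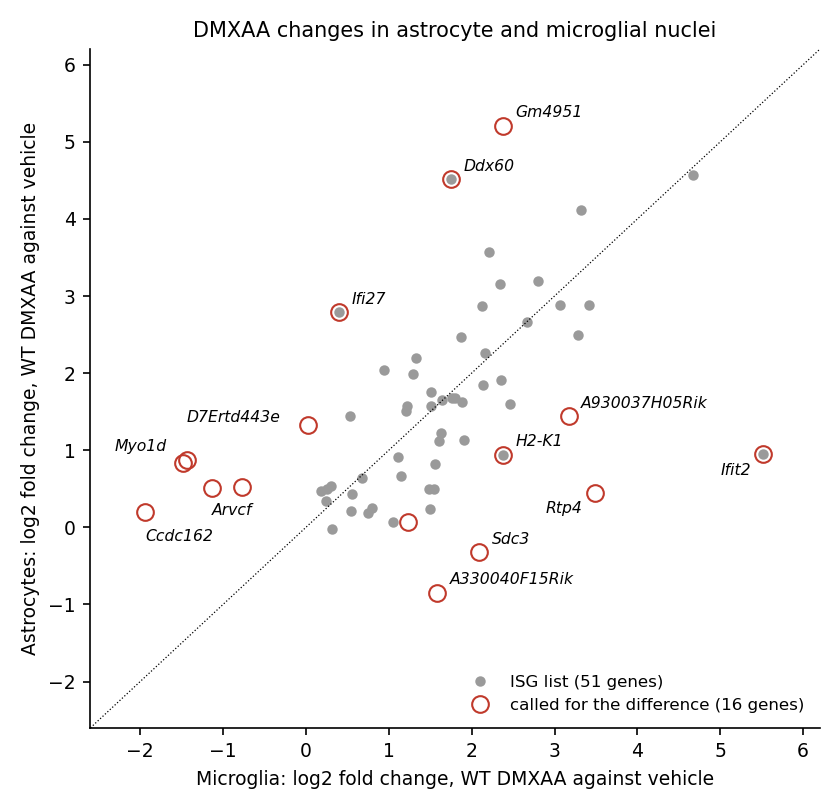
WT log2 fold changes after DMXAA in microglia (x axis) and astrocytes (y axis) for 51 ISGs tested in both classes (grey) and for the 16 genes whose effects differed (red circles). *Ddx60*, *Gm4951* and *Ifi27* lie above the dotted line of equal change and *Ifit2* and *Rtp4* below it.

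Against excitatory neurons 3 of 17583 genes differed (0.0171%, with 0.0114% larger and 0.00569% smaller in astrocytes). Of the 17583, 945 had an unadjusted p under 0.05, where chance alone gives a share of about 0.05. The count of genes that differed was larger with no filter on low counts and in fits that left out a library, as the last section gives. *Stat2* went from 36.3 to 129 CPM (group means) in WT astrocytes and from 33.5 to 57.5 CPM in WT neurons, a difference of 1.01 ± 0.14 in log2 fold change (edgeR adjusted p = 0.00326). *Ifi27* went from 21.0 to 139 CPM in astrocytes and from 5.98 to 15.8 CPM in neurons (1.28 ± 0.19, adjusted p = 0.00535). *Eif2ak2* had the smaller fold change in astrocytes, where it rose from a higher level, from 32.9 to 67.6 CPM against 1.65 to 15.9 CPM in neurons (−2.12 ± 0.20, adjusted p = 2.0e-05). On their own, WT microglia had 89 genes called higher and 38 lower of 9271 tested. WT excitatory neurons had 28 higher and 0 lower of 17661 tested. The classes differed in nuclei and in genes tested, so these counts are not a ranking.

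The share of astrocyte nuclei did not differ between treatments beyond the spread of libraries. They made up 9.55% ± 1.69 (SD, n = 4) of the nuclei in WT vehicle and 8.41% ± 2.22 in WT DMXAA libraries (exact permutation p = 0.429), and 13.7% ± 1.58 and 13.6% ± 0.317 in the *Ifnar1*-/- groups (exact permutation p = 1). Loss of a marker and loss of a nucleus cannot be told apart in these shares.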

How the data were processed

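The deposited files hold UMI counts per gene and barcode for each of the 16 libraries (10x Genomics 3′ chemistry, mm10), which the authors made with Cell Ranger. The matrix headers name version 6.1.2, and the labels name Cell Ranger 3.1.0 and Seurat 3.0. Deposited barcodes were filtered at 200 to 4000 genes and at most 5% mitochondrial UMIs. No doublet caller was run, and the 4 excluded genes removed part of the mixed barcodes. Counts of the astrocyte nuclei were summed per library, so that the animal was the replicate.

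Sums were tested with edgeR 4.0.16 (R 4.3.3), using TMM factors, filterByExpr and a quasi-likelihood fit of all 4 groups, with the 12 rule genes left out and Benjamini-Hochberg adjustment. Class differences used the library as a block. Errors of log2 fold changes are SE. For edgeR they were computed as the size of the log2 fold change divided by the square root of the quasi-likelihood F statistic, so they are approximate. CPM values are per summed astrocyte UMIs, without TMM factors, and were not set against each other between genes. Summed levels and shares were compared by exact two-sided permutation over 70 arrangements, and over 35 where WT DMXAA replicate 3 was left out. For the difference of effects between genotypes only the DMXAA libraries were exchanged. Sub-clusters came from Leiden clustering (leidenalg 0.10.2, resolution 0.4) on 2000 variable genes, each centred within its library, and 30 principal components. Limits for the mixed sub-clusters (over 1000 CPM and over 3 times the level in the other nuclei) were set after the values were seen. Promoter windows came from RefSeq (GRCm38.p6), and 26 of the 35 genes called higher had one.

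The members, gene lists and tests were chosen with earlier results of these data known. Named in full were, for WT with groups apart, the 15 steepest called rises and up to 10 steepest called falls, the 5 with the largest change in each direction for genotype and class differences, up to 4 called members per list role, or the 2 with the highest level where none was called, and a fixed set that included *Ifnar1*, *Gfap*, *C4b*, *Apoe* and *Dbp*. Other genes, such as *Irf1*, *Irf7*, *Tlr3*, *H2-D1*, *H2-K1*, *Arntl*, *Sox9*, *Nfia* and *Nfkbia*, were added after their values were seen. Values of 2 genes are not reported here, although they are part of the counts. The fits were tested on simulated data. In WT astrocytes, 62% of simulated 2-fold rises and 46.8% of falls to 0.5-fold were called. At 4-fold and 0.25-fold the shares were 98% and 84.8%. For astrocytes against microglia they were 12.9% and 6.25%, and 55.9% and 63.3%. Of 13192 and 8647 unchanged genes in these 2 comparisons, 9 and 3 were called. A gene without a call may thus have changed by 2-fold. Alternatives were DESeq2 1.42.0, limma 3.58.1, RLE factors, no filter on low counts, 3 or 5 markers in the rule, 4 more excluded genes, nuclei without the mixed sub-clusters, thinning to 500 UMIs, Leiden resolution 0.8 and leaving out each library. The position of each DMXAA library between the vehicle means of the genotypes, on log2(CPM + 1), and the list and sub-cluster values without WT DMXAA replicate 3 were added after the data were seen.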

Additional observations from a re-analysis of the deposited data

Results flagged for a closer look

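In 22 of 408 groups of 4 libraries (5.39%), 1 library lay farther from the others than Dixon's limit allows, and chance gives about 1 in 20. WT DMXAA replicate 1 was the high library for *Ddx60* (234 CPM), *Rnf213* (234 CPM), *Usp18* (96.6 CPM) and *A330040F15Rik* (6.26 CPM). WT DMXAA replicate 3 was low for *Ifi27* (27.1 CPM) and high for *Taco1* (52.3 CPM), and WT DMXAA replicate 2 had 1885 CPM of *Trpm3*. WT vehicle replicate 1 was high for *Usp18* (4.22 CPM), *Nlrc5* (8.91 CPM), *Ifit3b* (3.28 CPM), *Ifit2* (4.69 CPM) and *A330040F15Rik* (10.3 CPM). Among the other WT vehicle libraries, replicate 2 had 40.2 CPM of *Eif2ak2*, and replicate 4 had 6.23 CPM of *Ifih1* and 912 CPM of *Mertk*. In *Ifnar1*-/- vehicle libraries, replicate 2 stood apart for *Bst2* (0.301 CPM), *Gpc6* (1489 CPM) and *Jak1* (181 CPM), replicate 1 for *Zbtb20* (5187 CPM) and replicate 3 for *Tmem173* (0.260 CPM). The other *Ifnar1*-/- vehicle libraries held no UMI of *Bst2* or *Tmem173*, so any count there passes the limit. In *Ifnar1*-/- DMXAA libraries, replicate 2 stood apart for *Stat2* (20.8 CPM) and replicate 3 for *Trim34a* (2.37 CPM).

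The effect of DMXAA differed between groups in 3 tests. The summed ISG level rose by 1.25 more on the log2 scale in WT than in *Ifnar1*-/- astrocytes (exact permutation p = 0.0286, vehicle means taken as fixed). The WT effect of 16 genes differed between astrocytes and microglia, and that of 3 genes between astrocytes and excitatory neurons.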

How the results depend on the processing

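No paired analysis was possible because the replicate numbers were given in accession order and pair no animals. With DESeq2, 63 genes were called in WT (60 higher, 3 lower) and 27 for the difference between genotypes, and with limma 7 and with no filter on low counts 9 were called for that difference. With no filter, 73 genes differed from microglia and 28 from excitatory neurons. Leaving out 1 library at a time gave 15 to 129 calls in WT, 13 to 46 of them ISGs, 0 to 31 in *Ifnar1*-/-, 0 to 18 for the difference between genotypes, 2652 to 6169 between the vehicle groups, 7 to 114 against microglia and 3 to 31 against excitatory neurons. The WT count moved by over 1.5 times without WT vehicle replicate 2 (20), 3 (16) or 4 (15) and without WT DMXAA replicate 3 (129). The count against microglia did so without WT vehicle replicate 2 (10) or 3 (7) and without WT DMXAA replicate 1 (9), 2 (9), 3 (114) or 4 (28), and the vehicle comparison without *Ifnar1*-/- vehicle replicate 2 (2652). For the difference between genotypes, leaving out WT DMXAA replicate 1 gave 7 calls, replicate 4 gave 1 and *Ifnar1*-/- DMXAA replicate 2 gave 1. The WT rise of the summed ISG level was 0.978 to 1.51 on the log2 scale, and that of the share of nuclei with an ISG UMI 21.3 to 30.01 percentage points, with an exact permutation p of 0.0571 where a WT vehicle library was left out. The difference between the WT and *Ifnar1*-/- rises of the summed ISG level, where leaving out libraries was added after the data were seen, was 0.960 to 1.49 on the log2 scale, with an exact permutation p of 0.0571 without an *Ifnar1*-/- DMXAA library. The causes of these shifts were not tested. Among 102 results on the genes that the naming rule chose, 891 alternative values kept direction and side of the threshold, 39 kept the direction but no longer passed, and 0 reversed, a tally that leaves out genes named outside that rule, such as *Afap1l2*, *H2-D1* and *Irf7*. Genes with few UMIs, such as *Irf7* and *Isg15*, could not be tested at the depth of these sums with all libraries.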
